A study of Homo sapiens with 23 samples.

Results

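The Wnt and β-catenin pathway genes described here were CTNNB1, LEF1, TCF7, TCF7L2, APC, AXIN2, RNF43, ZNRF3, LGR5 and ASCL2, which are 10 of the 20007 protein-coding genes annotated by GENCODE release 44 on the autosomes and sex chromosomes. They were chosen by name. Each was examined over its annotated body with 5 kb added on both sides, called its window below, and all 10 passed the filter on low values used in the tests. Other protein-coding genes reached into the windows of CTNNB1 (ULK4), TCF7 (SKP1), ZNRF3 (C22orf31), LGR5 (TSPAN8) and RNF43 (SUPT4H1, HSF5). Genes without a symbol reached into those of RNF43, AXIN2 and APC. Regions were counted to a window whichever gene they lay nearest. The data came from chromatin immunoprecipitation with sequencing (ChIP-seq) in SW480 cells, an established human colorectal adenocarcinoma line that carries truncated APC, with antibodies against propionylated (Kpr), butyrylated (Kbu) or acetylated (Kac) lysine at H3K18 and H4K12. H3K18pr and H4K12pr were profiled after 10 mM sodium propionate (NaPr), H3K18bu and H4K12bu after 1 mM sodium butyrate (NaBu), and H3K18ac and H4K12ac after NaPr, after NaBu and in untreated cells. Treatments lasted 12 to 16 h. Each of the 10 groups had 2 libraries, and 1 input library (sonicated chromatin without antibody) stood for each treatment, giving 23 libraries. Replicates were not stated to be separate cultures, so p-values measure only the spread between these libraries.

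In the canonical Wnt pathway, ligands bind Frizzled and LRP receptors and stop a destruction complex, built on APC and AXIN, from marking β-catenin (the product of CTNNB1) for degradation. Stabilised β-catenin enters the nucleus and binds TCF/LEF factors (LEF1, TCF7, TCF7L2) at target genes, several of which (AXIN2, RNF43, ZNRF3) restrain the pathway in turn. In the intestine the pathway maintains crypt stem cells, which are marked by LGR5 and ASCL2, and APC loss makes it constitutively active in most colorectal tumours. Histone acetylation and its longer-chain relatives at H3K18 and H4K12 are found at active promoters and enhancers.

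The measured quantities were genomic regions called as enriched in each library, with a fold enrichment and a rank by p-value. The lists hold no read counts, so the depth of each library was not known from them and list length was the only guide per library. The lists held from 8158 (H4K12bu, replicate 2) to 208823 regions (untreated H4K12ac, replicate 1), and 30386 to 93923 in the inputs. The first H3K18ac NaPr library stood apart from its replicate, with 368 regions in the 10 windows against 117, and lay closer to the untreated H4K12ac libraries (407 and 361). The second H4K12ac NaBu library was short, with 11680 regions against 88658. Tags in the list names placed the propionyl libraries in 1 set and the NaPr and untreated acetyl libraries in another. All NaBu libraries were in the remaining set. What the tags record was not established, and the sets are called tag sets below. The tag set cannot be told apart from the acyl mark in propionyl against acetyl, or from NaBu in comparisons with untreated cells. Butyryl against acetyl and NaPr against untreated were each made within a single set. The list names of the 4 acetyl libraries labelled 1 mM NaBu also carried a tag that can be read as control, and the labels were followed. Start sites of 10 colon epithelial markers were covered for 1 to 6 genes in each immunoprecipitated library (CLDN4 and KRT8 most often) and for 0 in the inputs. In both H4K12bu libraries only CLDN4 was covered, and KRT20 and CDX1 were covered in no library. Of 4 blood markers only CD14 was covered, in the second H3K18ac NaPr library. Of 5 fibroblast and endothelial markers, 0 to 2 were covered per immunoprecipitated library (COL1A1, COL3A1 or PECAM1). No marker of these lists was covered in an input.

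AXIN2 was the most covered of the 10 windows in 13 of the 20 immunoprecipitated libraries, and LGR5 the least covered, alone or tied, in 15. AXIN2, the scaffold of the destruction complex and a direct target of β-catenin, had 54.3% and 45.9% of its window covered by H3K18pr regions and 82.9% and 68.5% by H4K12pr regions. Untreated H3K18ac covered 75.0% and 55.1% of it, and untreated H4K12ac 74.6% and 65.2%. Coverage after NaPr was 82.0% and 28.9% for H3K18ac and 16.4% and 11.1% for H4K12ac. All NaBu libraries were lower than every propionyl, NaPr and untreated library, at 8.88% and 8.46% for H3K18ac, 3.05% and 1.78% for H4K12ac, 2.36% and 1.61% for H3K18bu and 2.43% and 0.924% for H4K12bu. The inputs covered 0%, 1.15% and 0.557%, and only the second H4K12bu library fell below the highest of them. Relative to all windows of the same library, however, the NaBu input reached 4.29 in AXIN2. The first H3K18ac NaBu (3.42), first H4K12ac NaBu (2.43) and second H3K18bu (3.59) libraries lay below it. The remaining NaBu libraries lay above it (4.63 to 12.6).

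RNF43 and ZNRF3 are membrane ubiquitin ligases that remove Frizzled receptors from the cell surface. RNF43 was covered at 20.1% and 12.7% by H3K18pr, 36.8% and 34.4% by H4K12pr, 31.2% and 13.4% by untreated H3K18ac and 57.2% and 40.3% by untreated H4K12ac. It held no H4K12bu region, and 0.954% and 1.04% of it was covered by H3K18bu. ZNRF3 was the only window, with AXIN2, that held regions in all 20 immunoprecipitated libraries, from 0.77% (H4K12bu, replicate 2) to 45.9% covered (untreated H4K12ac, replicate 1). Its best region ranked in the top 0.434% to 3.45% of the list in all propionyl and acetyl libraries except the short H4K12ac NaBu library (20.9%), and in the top 5.24% to 16.6% of the butyryl lists. In the NaPr input, however, a region of 234 bp in ZNRF3 ranked 86 of 93923, so a high rank in this window was not limited to immunoprecipitated libraries. It overlapped regions of 6 immunoprecipitated libraries and lay outside the shared ZNRF3 regions described below.

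CTNNB1, which encodes β-catenin, was covered at 0.851% to 25.4% in the acetyl libraries, 11.4% to 21.8% in the propionyl libraries and 0% to 3.22% in the butyryl libraries. Its best region ranked in the top 0.865% to 4.16% in all propionyl and acetyl libraries other than the short one (30.0%). Among the nuclear factors, TCF7 was covered at 16.4% and 13.3% by H3K18pr and at 46.5% and 22.7% by H4K12pr, and TCF7L2, the main TCF of the intestinal epithelium, at 6.65% and 5.80% and at 9.55% and 8.77%. LEF1 ranged from 3.25% to 5.59% in the 4 propionyl libraries. No butyryl library held a region in LEF1 or TCF7, and 2 of 4 held any in TCF7L2 (0.638% and 0.267%).

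APC, the tumour suppressor at the core of the destruction complex, was thinly covered, at 0.235% to 4.14% in the propionyl libraries and at most 5.35% in any library. ASCL2, a transcription factor of crypt stem cells with a window of only 12091 bp, was covered at 41.6% and 39.8% by untreated H3K18ac, and at 25.5% and 12.1% by H3K18ac after NaBu. It was not covered at all by any butyryl library, by the first H3K18pr library or by the second H4K12ac NaPr and NaBu libraries. Input regions covered 4.65% and 6.10% of it in the NaPr and untreated inputs. Relative to all windows of the same library (the measure tested below), the untreated input reached 15.7 in ASCL2, above all 20 immunoprecipitated libraries (0 to 10.4), and 6.19 in TCF7, above all but the first H4K12pr library (6.68). LGR5, the R-spondin receptor that marks crypt stem cells, was covered at 0% to 0.837% across the 20 libraries, which overlapped the inputs (0.254% to 0.854%). LGR5 coverage was thus not distinguishable from input at the depth of these lists.

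**Figure D1:**
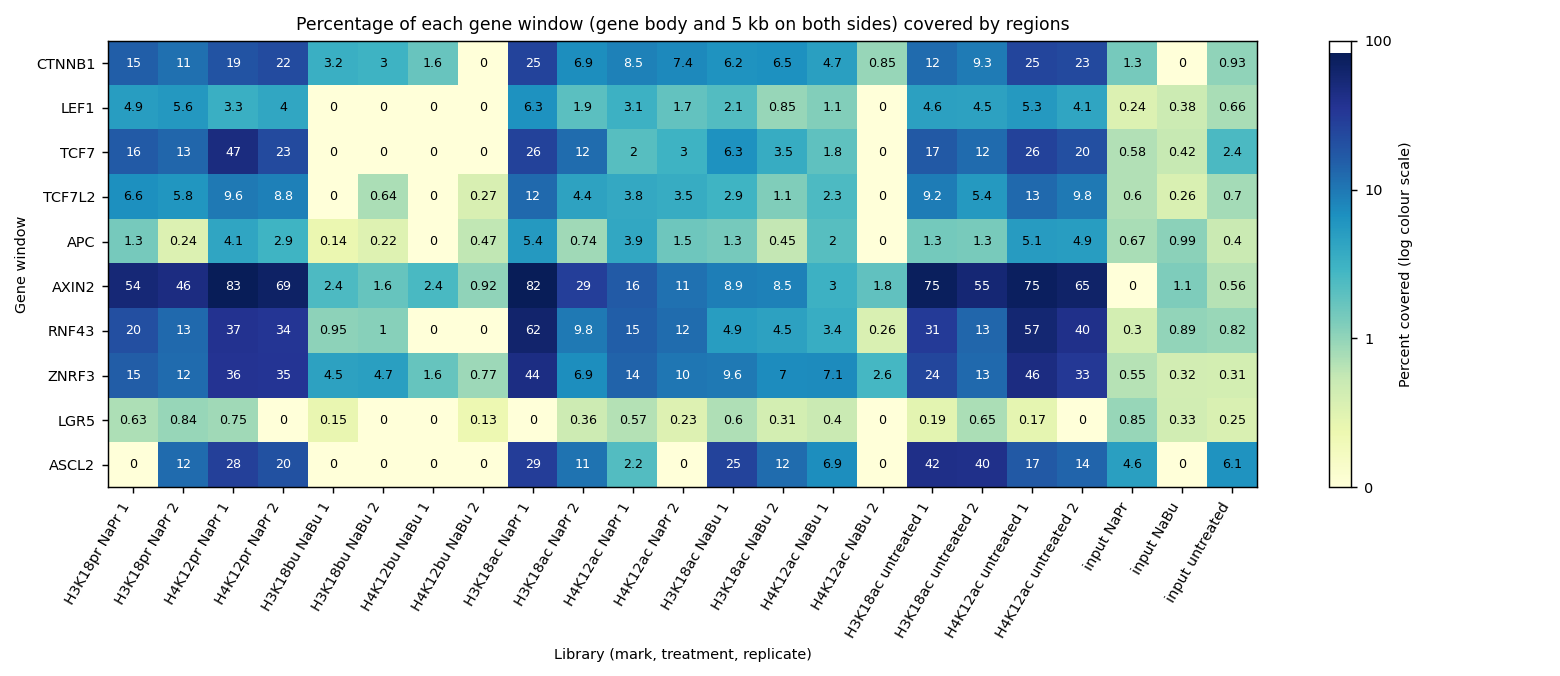
Percentage of each of the 10 gene windows (rows) covered by regions in each of the 23 libraries (columns), printed in each cell and coloured on a log scale. AXIN2 reaches 82.9% in an H4K12pr library, LGR5 stays at or below 0.854% everywhere, and the 4 butyryl libraries are at 4.70% or lower in every window.

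Taken over the 10 windows together, 8.19% to 18.4% of the bases were covered in the propionyl libraries, 0.302% to 1.29% in the butyryl libraries, 0.585% to 22% in the acetyl libraries and 0.456% to 0.678% in the inputs. Because the lists differed in length, coverage was also divided by the coverage of all protein-coding windows in the same library. This ratio was 2.57 and 2.59 in the H3K18pr libraries and 2.64 and 3.25 in the H4K12pr libraries. In H3K18bu it was 2.29 and 2.87, and in H4K12bu 2.04 and 2.47. For the acetyl marks it ran from 1.69 (H3K18ac after NaBu) to 3.85 (untreated H4K12ac). The inputs gave 0.708, 1.71 and 1.75, so the lowest acetyl library was not above them and the other 19 were. Without AXIN2 the ratios were 1.62 to 3.46 in the immunoprecipitated libraries and 0.736, 1.60 and 1.76 in the inputs, and both H3K18ac NaBu libraries (1.62 and 1.69) were then below the highest input.

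The start sites themselves were seldom covered, although regions lay beside them. By the annotated 5′ end of each gene, 0 to 2 of the 10 members were occupied in any library, against 0.905% to 42.2% of all protein-coding genes, and the covered starts were those of LEF1, ASCL2 and LGR5. GENCODE places the 5′ end of CTNNB1 and APC 4764 and 30367 bp upstream of the start of their canonical transcripts. By the canonical start, a definition adopted after these values were seen, CTNNB1 was covered in 11 of 20 libraries (all 4 propionyl, 7 of 12 acetyl and 0 of 4 butyryl), ASCL2 in 7, LEF1 in 6, APC in 5 and LGR5 in 1. The CTNNB1 start was also covered in the untreated input. The starts of AXIN2, RNF43, ZNRF3, TCF7 and TCF7L2 were covered in 0 of 20 libraries, yet a region lay within 1 kb of them in 15, 14, 13, 12 and 9 libraries. The nearest region edge reached 38 bp from the AXIN2 start, 27 bp from RNF43, 15 bp from TCF7L2, 90 bp from TCF7 and 318 bp from ZNRF3. Within 1 kb, 8 or 9 of 10 members had a region in each untreated acetyl library, 6 or 7 in the propionyl libraries, 0 to 2 in the butyryl libraries, and 0, 1 and 4 in the NaPr, NaBu and untreated inputs. After NaPr or NaBu, 4 to 8 had one in each H3K18ac library and 1 or 2 in each H4K12ac library. The shares of all genes were 63.4% to 68.0% for untreated acetyl, 48.0% to 61.3% for propionyl, 7.65% to 18.8% for butyryl and 2.89% to 17.8% for the inputs. For treated acetyl they were 43.8% to 65.6% at H3K18 and 14.8% to 34.0% at H4K12.

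**Figure D2:**
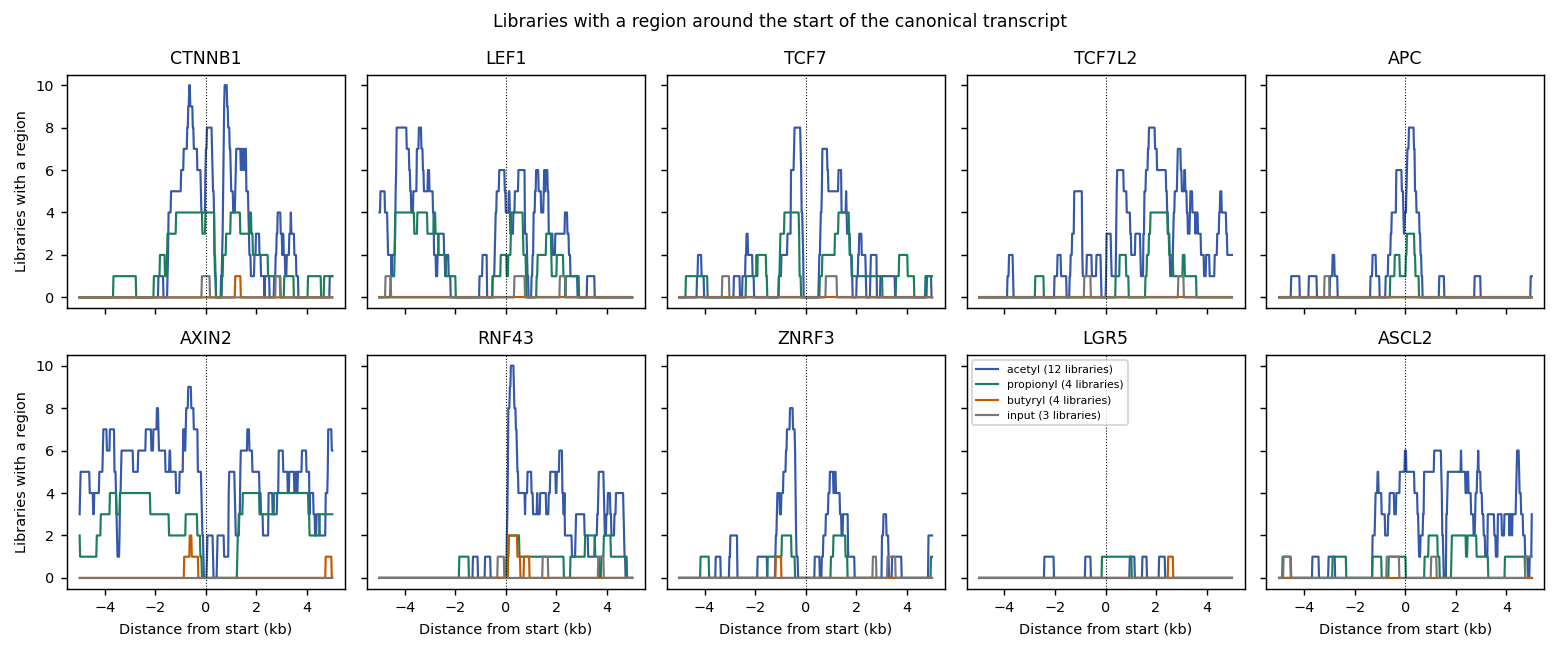
Number of libraries (y axis) with a region at each distance in kb (x axis) from the canonical transcript start, in 12 acetyl, 4 propionyl, 4 butyryl and 3 input libraries. Regions flank the starts of AXIN2, TCF7 and ZNRF3 on both sides with a gap at the start, and cover the CTNNB1 start in 7 acetyl and 4 propionyl libraries.

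Merging overlapping regions of all 23 libraries gave 585 regions in the 10 windows, of which 459 were intronic, 72 overlapped exons and 5 covered a start. Of these, 285 came from a single immunoprecipitated library, 26 from inputs alone, and 45 were held by 10 or more immunoprecipitated libraries. The 6 held by at least 19 of the 20 were in AXIN2, ZNRF3 and CTNNB1 (hg38). In ZNRF3 they were chr22:28908406-28933612 (20 libraries) and chr22:28972247-28980129 (19), both in intron 1 of the canonical transcript (the former covering the start of 1 other coding transcript), and chr22:29027160-29034295 (20), in intron 2 and 147155 bp from the start. In AXIN2 they were chr17:65525849-65542559 (19), over exons 4 to 11, and chr17:65523607-65525552 (20), 3011 bp past the 3′ end of the gene. In CTNNB1 the region was chr3:41241280-41250649 (19), which begins 837 bp past the end of the canonical transcript but inside the annotated gene. The intron 2 and the chr22:28972247-28980129 regions of ZNRF3 and the CTNNB1 region overlapped 0 inputs, and the others overlapped 1 or 2. Merging chains regions that need not overlap each other, so libraries that hold a merged region need not share the same bases. The butyryl libraries covered only 1.02% to 1.89% of the AXIN2 region over exons 4 to 11. H4K12bu covered 7.50% and 4.51% of the ZNRF3 region chr22:28908406-28933612.

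The region in ZNRF3 intron 2 had a fold enrichment over control of 40.8 and 23.7 in H3K18pr and 17.2 and 23 in H4K12pr. It was 26.2 and 10.1 in untreated H3K18ac, and 4.6 and 5.97 in untreated H4K12ac. After NaPr it was 6.42 and 14.7 in H3K18ac, and 4.27 and 4.05 in H4K12ac. The butyryl libraries gave 4.42 and 4.64 at H3K18 and 4.89 and 3.76 at H4K12. The acetyl libraries of the same tag set gave 20.8 and 12.3 at H3K18 and 8.60 and 4.31 at H4K12. This ZNRF3 region ranked in the top 0.434% to 0.923% of the propionyl lists and 16.6% to 38.0% of the butyryl lists. In CTNNB1 the region past the canonical 3′ end had a fold of 29.6 and 14.9 in H3K18pr, 7.58 and 9.01 in H4K12pr, and 5.83 and 5.52 in H3K18bu. After NaBu the acetyl libraries gave 11.8 and 10.4 for H3K18ac and 7.47 and 4.11 for H4K12ac there, and untreated cells 12.0 and 6.61, and 4.42 and 4.40. The NaPr acetyl libraries gave 5.60 and 3.41 for H3K18ac and 3.03 and 2.31 for H4K12ac. The CTNNB1 region was present in the first H4K12bu library (4.20) and not in the second. Fold enrichments depend on each library's own control and were not compared between tag sets.

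**Figure D3:**
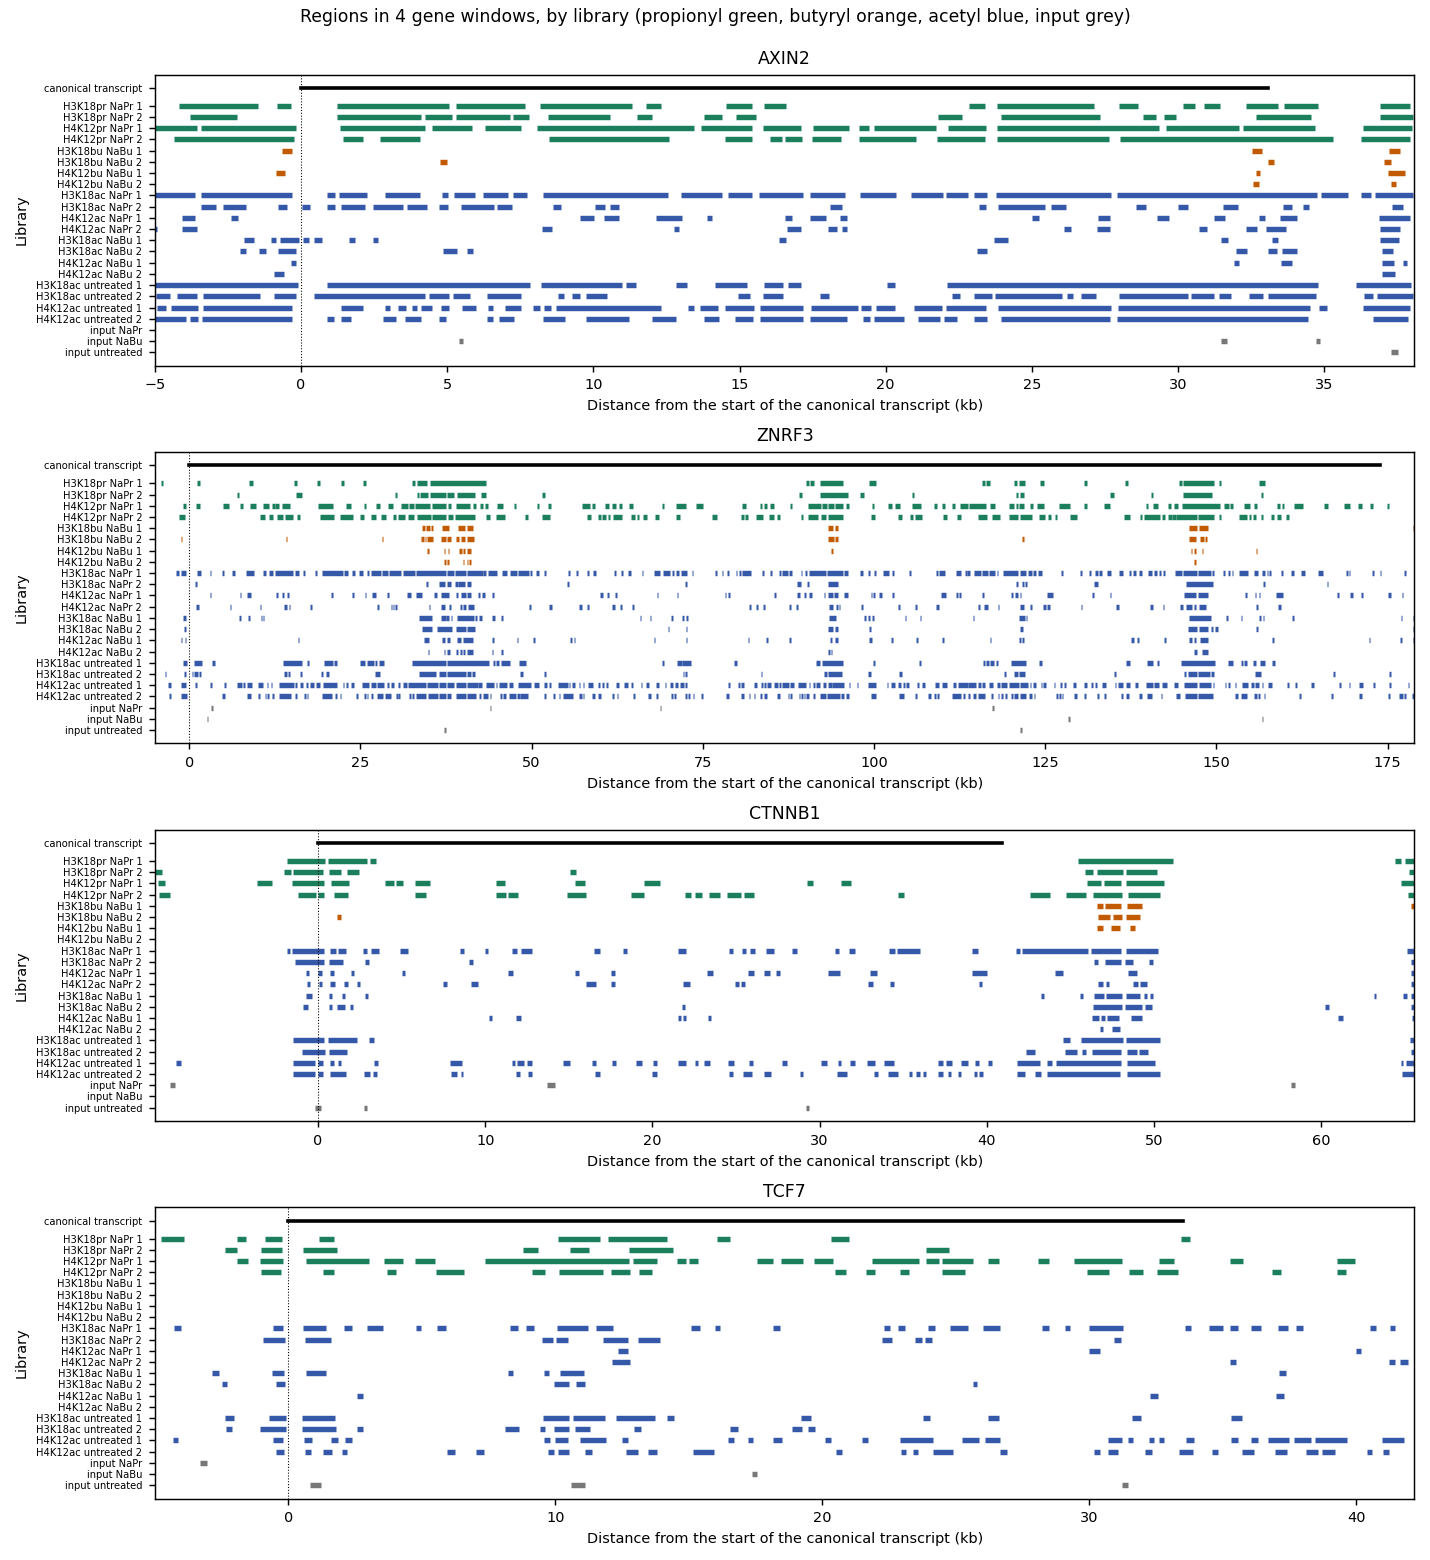
Regions of each of the 23 libraries (rows) in the AXIN2, ZNRF3, CTNNB1 and TCF7 windows, against distance in kb from the canonical start. The ZNRF3 intron 2 region, 147155 bp from the start, is held by all 20 immunoprecipitated libraries, and the TCF7 window has no butyryl region.

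The 300 bases (plus strand, hg38) at the summit of the best-ranked of these shared regions in each of the 3 genes are shown. Each summit is that of the library in which the region ranked highest. Whether the other libraries had a region over these bases was not counted. They were read at chr22:29031070-29031369 for ZNRF3 (rank 532, H4K12pr replicate 2), at chr17:65524013-65524312 for AXIN2 (rank 1087, first H3K18ac NaPr library) and at chr3:41246971-41247270 for CTNNB1 (rank 1733, H3K18pr replicate 1). Windows overlapping a UTR were left out. No capitals appear, as neither the TCF/LEF motif ATCAAAG nor the AP-1 motif TGANTCA occurred in them on either strand.
ZNRF3: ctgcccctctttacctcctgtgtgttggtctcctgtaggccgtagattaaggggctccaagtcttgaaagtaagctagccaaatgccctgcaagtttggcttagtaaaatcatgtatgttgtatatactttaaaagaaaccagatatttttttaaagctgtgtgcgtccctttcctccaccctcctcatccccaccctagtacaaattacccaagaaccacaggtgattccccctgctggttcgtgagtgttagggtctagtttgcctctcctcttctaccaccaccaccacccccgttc
AXIN2: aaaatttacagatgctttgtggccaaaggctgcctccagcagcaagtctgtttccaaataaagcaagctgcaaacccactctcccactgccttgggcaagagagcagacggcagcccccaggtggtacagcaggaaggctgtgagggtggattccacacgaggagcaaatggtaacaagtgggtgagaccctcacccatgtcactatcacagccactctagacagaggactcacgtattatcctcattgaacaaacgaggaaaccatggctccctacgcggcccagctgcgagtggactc
CTNNB1: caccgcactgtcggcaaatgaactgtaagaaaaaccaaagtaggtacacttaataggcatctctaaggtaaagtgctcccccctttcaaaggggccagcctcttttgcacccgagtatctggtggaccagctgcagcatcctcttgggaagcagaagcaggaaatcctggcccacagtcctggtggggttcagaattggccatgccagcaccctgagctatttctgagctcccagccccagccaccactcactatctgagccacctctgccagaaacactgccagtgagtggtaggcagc

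Across the 6 shared regions, ATCAAAG occurred 5 times in the CTNNB1 region (0.534 per kb, against 0.183 per kb over chromosome 3), 2 to 5 times in each ZNRF3 region (0.198 to 0.28 per kb, against 0.157 over chromosome 22) and 4 times in the AXIN2 gene region (0.239 per kb, against 0.200 over chromosome 17). It did not occur in the region past AXIN2. The match nearest the summit is shown for the CTNNB1 region (chr3:41247677-41247723, 579 bp from the summit), the ZNRF3 intron 2 region (chr22:29030866-29030912, 331 bp) and the AXIN2 region (chr17:65539402-65539448, in intron 4, 1928 bp), with the motif or its reverse complement in capitals.
CTNNB1 match: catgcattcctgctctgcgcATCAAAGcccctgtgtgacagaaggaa
ZNRF3 match: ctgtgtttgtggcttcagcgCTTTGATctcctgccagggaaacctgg
AXIN2 match: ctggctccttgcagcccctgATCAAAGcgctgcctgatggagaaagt
Among the 300-base summit windows of whole lists, ATCAAAG was present in 2.52% to 5.01% of regions in the immunoprecipitated libraries and 5.48% to 5.72% in the inputs. In the immunoprecipitated libraries the summits inside the 10 windows held it in 0% to 7.55% of regions, on counts of 0 to 23 per library. The NaPr, NaBu and untreated inputs held it there in 15.4%, 0% and 11.1%, on counts of 4, 0 and 3. TGANTCA was present in 6.56% to 11.9% of summits in the immunoprecipitated lists and 0% to 13.2% of those in the 10 windows.

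Comparisons between groups used each window's coverage divided by that of all windows in the same library, on the log2(value + 0.5) scale, in a limma fit over 18842 genes. Differences below are on that scale, with adjusted p from limma and the Benjamini-Hochberg method over all genes tested. Propionyl was compared with acetyl at the same site after NaPr. The test compares the amount of coverage of each window and cannot tell whether the marks lie at different places within it. At H3K18, 0 of 10 members were called, against 0.165% of all genes, and at H4K12 0 of 10, against 4.95%. At an unadjusted p under 0.05, limma gave 0 members at H3K18 (6.85% of all genes) and 3 at H4K12 (20.2%). The median difference of the members was −0.14 at H3K18 (all genes −0.03) and −0.05 at H4K12 (all genes 0.05). The members with the largest differences at H4K12 were ASCL2, TCF7 and AXIN2. TCF7 was covered at 46.5% and 22.7% in H4K12pr against 2.05% and 2.99% in H4K12ac, a difference of 1.86 (SE 0.52, limma adjusted p = 0.0561). AXIN2 differed by 0.99 (SE 0.43, limma adjusted p = 0.217) and ASCL2 by 2.41 (SE 1.00, limma adjusted p = 0.189). In all 3 the libraries of the H4K12pr and H4K12ac groups did not overlap, as was so in the higher direction for 32.0% of all genes. Relative coverage of LGR5, LEF1 and APC did not overlap in the lower direction, as for 25.1% of all genes. Without scaling to the library ASCL2, TCF7 and AXIN2 were called higher in H4K12pr, with 30.5% of all genes called and a median shift of 1.24. The H3K18 counts were the same without the first H3K18ac NaPr library.

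Butyryl was compared with acetyl at the same site after NaBu. At H3K18, 2 of 10 members were called lower in H3K18bu and 0 higher, against 12.0% of all genes called lower and 12.6% in either direction. ASCL2 was covered at 0% and 0% by H3K18bu and at 25.5% and 12.1% by H3K18ac (limma adjusted p = 0.0159), and TCF7 at 0% and 0% against 6.32% and 3.47% (limma adjusted p = 0.00860). Both are listed at 0 in H3K18bu, so no fold is given and the fitted differences of −4.18 (SE 1.00) and −2.48 (SE 0.52) depend on the pseudocount. With only the 8158 strongest regions of every library (the length of the shortest list), neither was called, and ASCL2 was then uncovered in all 4 libraries of the comparison. Leaving out the second H3K18bu or the first H3K18ac NaBu library left 0 calls (4.19% and 2.72% of all genes), and leaving out the first H3K18bu library left TCF7 (11.4%). ZNRF3 and CTNNB1 lay the other way. Relative coverage of ZNRF3 was 8.77 and 10.5 in H3K18bu against 3.69 and 4.30 in H3K18ac, and that of CTNNB1 was 6.32 and 6.65 against 2.38 and 4.00. The groups did not overlap in either gene, as in 11.7% of all genes in that direction, and neither difference passed the test (1.17, SE 0.45, limma adjusted p = 0.107, and 0.96, SE 0.87, limma adjusted p = 0.528). At H4K12, RNF43 alone was called, lower in H4K12bu, against 5.51% of all genes called lower and 6.06% in either direction. It was covered at 0% and 0% by H4K12bu and 3.38% and 0.256% by H4K12ac (limma adjusted p = 0.0218), so this difference too depends on the pseudocount. Without the second H4K12ac NaBu library 5 members were called (AXIN2 higher, and ASCL2, LEF1, RNF43 and TCF7 lower), with 30.7% of all genes. The RNF43 difference of −2.12 (SE 0.51) ran from −2.68 to −1.56 as each library was left out in turn. Its call did not hold in every case.

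NaPr was compared with no treatment within the acetyl marks. For H3K18ac 0 of 10 members were called (0.0265% of all genes), with or without the first NaPr library, 0 had an unadjusted p under 0.05 (3.77% of all genes), and the median difference was 0.08 (all genes −0.06). For H4K12ac 0 of 10 were called (2.80% of all genes), 2 had an unadjusted p under 0.05 (16.2% of all genes), and the median was −0.36 (all genes −0.12). In 7 of 10 members both H4K12ac NaPr libraries had lower relative coverage than both untreated libraries, against 36.6% of all genes. AXIN2 was covered at 74.6% and 65.2% untreated and at 16.4% and 11.1% with NaPr, and its relative coverage was 13.4 and 13.2 untreated and 6.81 and 5.62 with NaPr (−1.04, SE 0.43, limma adjusted p = 0.241). TCF7 had a relative coverage of 4.69 and 4.09 untreated and 0.851 and 1.52 with NaPr (−1.56, SE 0.52, limma adjusted p = 0.136). Unscaled coverage called AXIN2, TCF7 and ASCL2 lower after NaPr, together with 23.3% of all genes and a median shift of −1.21.

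NaBu was compared with no treatment in the same way. For H4K12ac 3 of 10 members were called lower after NaBu and 0 higher, against 16.3% of all genes (13.4% lower). AXIN2, at 3.05% and 1.78% against 74.6% and 65.2%, differed by −1.58 (SE 0.43, limma adjusted p = 0.0251). RNF43, at 3.38% and 0.256% against 57.2% and 40.3%, differed by −2.15 (SE 0.51, limma adjusted p = 0.0134). TCF7, at 1.84% and 0% against 26.2% and 20.2%, differed by −2.30 (SE 0.52, limma adjusted p = 0.0112). The relative coverage of ZNRF3 was 5.69 and 10.0 after NaBu and 8.22 and 6.68 untreated, so its groups overlapped. Leaving out the short NaBu library left AXIN2 as the only call (6.95% of all genes) and moved AXIN2 to −2.24 and TCF7 to −1.31. Leaving out the other NaBu library gave 5 calls without AXIN2 (37.4% of all genes), with AXIN2 at −0.92 and TCF7 at −3.29. Leaving out either untreated library left 0 calls (2.84% and 2.4% of all genes). For H3K18ac 0 of 10 were called by limma (1.55% of all genes), and 1 had an unadjusted p under 0.05, as had 13% of all genes. AXIN2, at 8.88% and 8.46% against 75.0% and 55.1%, differed by −1.84 (SE 0.43) and missed the threshold (limma adjusted p = 0.0504), which it passed with 1 kb flanks or without the low-value filter. In relative coverage of AXIN2, the first NaBu libraries of H3K18ac and H4K12ac (3.42 and 2.43) were below the NaBu input (4.29). The second ones (5.22 and 6.78) were above it. These comparisons lie across tag sets, as stated above.

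**Figure D4:**
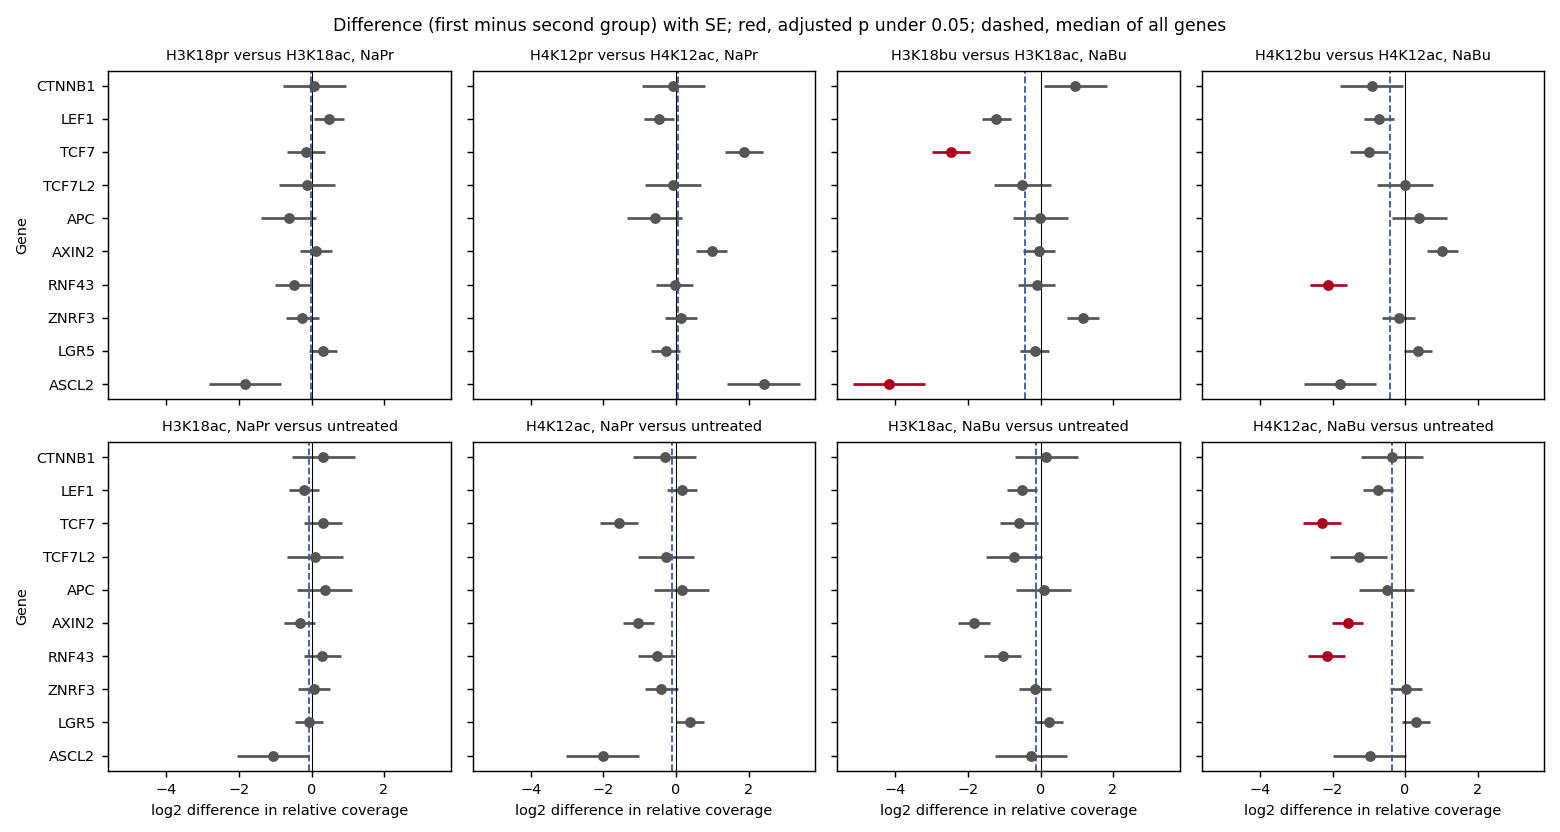
Difference in relative coverage (first minus second group, log2 scale, x axis) for each of the 10 genes (y axis) in 8 comparisons, with the standard error of the limma fit (2 libraries per group). Red points have an adjusted p under 0.05, and the dashed line is the median of all genes tested, for example −0.37 for H4K12ac after NaBu against untreated.

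Between sites, 0 of 10 members were called for H4K12pr against H3K18pr (0.0849% of all genes) and for untreated H4K12ac against H3K18ac (0.0531%), and 0 had an unadjusted p under 0.05 in either (8.99% and 9.76% of all genes). RNF43 was called lower in H4K12bu than in H3K18bu (−2.37, SE 0.51, limma adjusted p = 0.012), against 4.97% of all genes called lower and 6.12% in either direction. Neither H4K12bu library held a region in RNF43, so this difference depends on the pseudocount. The H4K12bu lists were also shorter, at 9642 and 8158 regions against 22059 and 22497 for H3K18bu. With the 8158 strongest regions of each library RNF43 was not called (2.18% of the genes then tested were). As each library was left out in turn, the RNF43 difference ran from −2.50 to −2.25, and its call did not hold in every case. Among the 8158 strongest regions of each library, LEF1 and TCF7 were covered in both H3K18pr libraries (1.55% and 1.31%, 4.72% and 3.54%) and both untreated H3K18ac libraries (1.5% and 1.66%, 2.63% and 2.70%). In the H4K12 libraries TCF7 was uncovered, and LEF1 was covered only in the first untreated H4K12ac library (0.413%). The untreated input covered 0.315% of LEF1 and 0.932% of TCF7. ASCL2 was covered only by untreated H3K18ac (7.45% and 22.4%) and by the untreated input (4.23%). With these regions LEF1 and TCF7 were called lower in H4K12pr than in H3K18pr, against 1.52% of the genes then tested. As H4K12pr then covered neither gene, these differences depend on the pseudocount. With all regions neither was called, and LEF1 was lower in H4K12pr (−0.83, SE 0.41) but TCF7 was higher (0.36, SE 0.52). The difference between sites in the response to NaPr, to NaBu, to propionyl and to butyryl against acetyl was tested for each member, and 0 of 40 tests were called (smallest limma adjusted p = 0.193, for ASCL2 in propionyl against acetyl). Of all genes, 0.998% were called for propionyl, 1.85% for butyryl, 0.143% for NaPr and 0.0106% for NaBu. At an unadjusted p under 0.05 limma gave 2 members for propionyl (12.4% of all genes) and 1 each for butyryl (13%), NaPr (6.27%) and NaBu (7.97%).

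**Figure D5:**
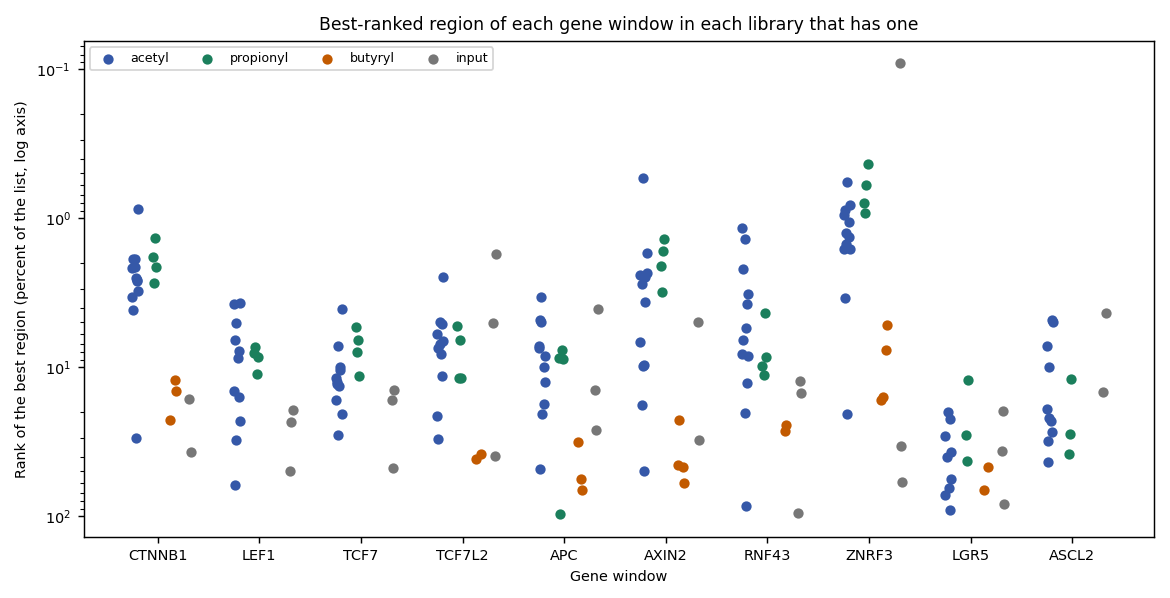
Rank of the best region of each gene window as a percentage of the library's list (log axis, best at the top), for every library with a region there. The best ZNRF3 region lies in the top 0.434% to 3.45% in 15 of 16 propionyl and acetyl libraries and in the top 5.24% to 16.6% in the butyryl libraries, and the NaPr input point in ZNRF3 is rank 86 of 93923 (0.0916%).

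Other pathway genes, 71 by a list of ligands, receptors, transducers, nuclear partners, inhibitors and intestinal targets, were all tested. In H4K12pr against H4K12ac 5 were called higher and 0 lower (7.04%, against 4.95% of all genes), led by DVL2 (3.09, SE 0.53, limma adjusted p = 0.00548), FZD5 (2.39) and DVL1 (3.56), which are transducers and a receptor upstream of the destruction complex. After NaPr, 3 were called lower in H4K12ac, DVL2, WNT10A and FZD5 (4.23%, against 2.80%). After NaBu, 5 were called lower in H4K12ac and 1 higher (8.45%, against 16.3%), led by DVL2, FZD5 and the Groucho co-repressor TLE1, and 4 lower in H3K18ac (5.63%, against 1.55%), led by WNT5A, FZD8 and TLE1. In H3K18bu against H3K18ac 4 were called lower and 1 higher (7.04%, against 12.6%), led by WNT3A, FZD5 and DVL1. In H4K12bu 2 were called lower than in H4K12ac (EPHB2 and BTRC, 2.82%, against 6.06%) and 5 lower than in H3K18bu (7.04%, against 6.12%), led by the Wnt targets EPHB2 and SP5 and by DVL2. In the remaining 4 comparisons 0 of 71 were called. DVL2 had no region in any H4K12ac NaPr, H4K12ac NaBu or H4K12bu library, so its differences depend on the pseudocount, and the comparisons naming it share those libraries.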

How the data were processed

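The submitters' processing notes name Bowtie2 2.3.1, MACS2 2.1.0 and hg38, and the 23 deposited narrowPeak lists, 1 per library, were called by the authors against input, with every listed p-value at 0.01 or lower. Which control the input lists used was not given in the sources used here. The deposited lists give fold enrichment over control and −log10 p and q values per region, and no read counts. The p-value column set the ranks. Members and gene lists were chosen with earlier results of these data known.

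From the lists, the bases of each GENCODE 44 gene window (body with 5 kb on both sides) covered by regions were computed, as were the best rank and whether a region covered the start. Coverage was divided by that of all 20007 windows in the library. limma 3.58.1 (R 4.3.3, moderated with trend and robust options) was fitted to log2(relative coverage + 0.5) of 18842 genes with a region in at least 2 of the 20 immunoprecipitated libraries, in 10 groups, without the inputs. Adjusted p under 0.05 was a call. The fit was tested on simulated data. Same-numbered libraries did not deviate together (correlations from −0.135 to 0.142), so replicate numbers were not used to pair them. All 10 members are named, as are at most 3 other pathway genes per comparison by adjusted p. Motifs were searched in hg38, and promoters in RefSeq sequences (GRCh38.p14).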

Additional observations from a re-analysis of the deposited data

How the results depend on the processing

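Peak lists set the limit here, since they hold no depth per library and their lengths differ widely. The 8158 strongest regions of each library left 10894 genes tested, and the share of these called is in brackets. Member calls became 2 for H3K18pr (5.1%), 0 for H3K18bu (4.31%) and 0 for H4K12bu (1.54%) against acetyl. They became 3 for H3K18ac and NaPr (3.13%), 2 for H3K18ac and NaBu (10.9%) and 1 for H4K12ac and NaBu (15.4%). Between sites they became 2 for H4K12pr against H3K18pr (1.52%) and 0 for H4K12bu against H3K18bu (2.18%). Untreated H4K12ac against H3K18ac gave 4 (4.46%). Many of these calls rest on groups in which no library held a region, and several members then had no value. Unscaled coverage gave 3 for H4K12pr (30.5% of all genes), 4 for H3K18bu (32.4%) and 0 for H4K12bu (0.117%) against acetyl, 3 for H4K12ac and NaPr (23.3%), 1 for H3K18ac and NaBu (5.71%), 8 for H4K12ac and NaBu (67.9%) and 0 for H4K12bu against H3K18bu (0.0849%). With q under 0.05 the counts were 1 for H4K12pr (8.18% of all genes) and 0 for H4K12bu (3.94%) against acetyl. H4K12bu against H3K18bu gave 2 (7.7%). Flanks of 1 kb gave 2 for H4K12pr against acetyl (5.55%), 1 for H4K12ac and NaPr (3.76%) and 1 for H3K18ac and NaBu (2.29%). No filter gave 1 for H3K18ac and NaBu (1.68%). Beyond the scaling itself, the cause was not tested. Regions over input removed and a pseudocount of 0.1 kept each count within 1.5 times. The replicate block left every count of member calls as it was, 3 for H4K12ac and NaBu included, and crossed numbers, added after seeing the data, also gave 0 for H3K18ac and NaBu.

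Leaving out each library in turn gave 0 to 2 calls for H3K18bu and 0 to 5 for H4K12bu against acetyl, 0 to 5 for H4K12ac and NaBu, 0 to 2 for H4K12bu against H3K18bu, and 0 elsewhere. The lone library left in a group was assumed to vary like the others. A mean of 0.75 members per immunoprecipitated library had an occupied start (0.684 to 0.789 with a library left out). This became 0.05 with equal numbers of regions, 4.9 within 1 kb and 1.5 with canonical starts. Mean coverage of the 10 windows was 8.30% (7.58% to 8.72%), and 1.77% with equal numbers of regions.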

Other observations

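Input regions coincided with immunoprecipitated regions in several windows. The best region of the untreated input in AXIN2, 240 bp long and 37419 bp from the start, overlapped regions of 19 immunoprecipitated libraries. Its best region in ZNRF3 (346 bp, at 37351 bp) overlapped those of all 20, and its best region in CTNNB1, across the canonical start, those of 12. The untreated input had a region within 1 kb of 17.8% of all gene start sites, against 7.86% and 2.89% for the NaPr and NaBu inputs. In APC, by contrast, the best untreated input region (rank 1238 of 30386) overlapped 0 immunoprecipitated libraries.

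Of the 11 RefSeq promoters listed for 6 of the members (250 bases before the start), 0 held ATCAAAG, which 2.26% of the 35116 promoters in the same table held. The AP-1 motif TGANTCA was present in 1 of the 11, an RNF43 promoter, and in 6.57% of all.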
